A study of Homo sapiens with 5 samples.

Results

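DNase-seq finds open chromatin by sequencing the fragments that the enzyme DNase I releases from nuclei, and its peaks mark the accessible sites. The peaks described here lie around 3 genes of the interferon regulatory factor family, IRF4, IRF5 and IRF8. They were taken by position in hg18. The IRF4 window was chromosome 6 from 300000 to 420000, the IRF5 window chromosome 7 from 128340000 to 128400000 and the IRF8 window chromosome 16 from 84450000 to 84600000. A peak belonged to a window when it shared at least 1 base with it. Of the 109692 peaks deposited for 5 human cell lines, 78 were members, with 43 in the IRF4 window, 20 in the IRF5 window and 15 in the IRF8 window.

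Hodgkin lymphoma was the source of 3 lines, L1236, L428 and L591. Reh, from pro-B lymphoblastic leukaemia, and Namalwa, from Burkitt lymphoma, formed the non-Hodgkin group of the labels. All were used at passage 7 with no drug or genetic treatment named, with digestion at 12 U/ml of the enzyme for L591 and Namalwa and at 6 U/ml for the other lines. Each line gave 1 peak list, so the lines are the replicates of their group, no error within a line was available, and each line stands for itself alone as a model of its disease. The labelled cell types were not checked against marker genes.

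Interferon regulatory factors share a DNA-binding domain that recognises GAAA repeats of interferon-responsive elements. IRF4 acts in activated B cells and drives plasma cell formation, and its protein is a diagnostic marker of the malignant cells of Hodgkin lymphoma. IRF5 works downstream of Toll-like receptors and turns on inflammatory cytokine genes, and it has been described as a regulator of the Hodgkin lymphoma programme. IRF8 serves early B cells, germinal centre B cells and myeloid cells. IRF4 and IRF8 bind many sites only together with a partner factor, such as an ETS family factor.

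The bases just before a transcription start are shown for each gene, as sequence context for the windows. No sequence in hg18 was used, so the bases under the peaks themselves are not shown and the promoters, which RefSeq gives in GRCh38.p14, were not placed on the peaks. All are on the plus strand, 5′ to 3′, and capitals mark GC boxes (GGGCGG on either strand).
IRF4, chr6:391502-391751: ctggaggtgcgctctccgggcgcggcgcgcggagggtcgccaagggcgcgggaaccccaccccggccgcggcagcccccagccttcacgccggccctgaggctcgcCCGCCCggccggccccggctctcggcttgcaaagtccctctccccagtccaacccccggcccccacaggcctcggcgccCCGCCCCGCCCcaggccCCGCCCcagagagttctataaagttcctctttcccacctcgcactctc
IRF5, chr7:128937677-128937926: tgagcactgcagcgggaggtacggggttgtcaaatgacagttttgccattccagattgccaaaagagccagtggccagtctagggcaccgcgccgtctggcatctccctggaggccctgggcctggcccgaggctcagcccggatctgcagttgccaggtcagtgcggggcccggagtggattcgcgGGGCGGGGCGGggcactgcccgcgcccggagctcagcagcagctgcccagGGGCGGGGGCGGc
IRF8, chr16:85902580-85902829: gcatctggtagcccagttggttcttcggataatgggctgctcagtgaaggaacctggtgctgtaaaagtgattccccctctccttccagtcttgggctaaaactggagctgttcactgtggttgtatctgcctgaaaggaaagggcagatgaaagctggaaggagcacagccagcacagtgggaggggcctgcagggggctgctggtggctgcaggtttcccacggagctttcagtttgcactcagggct
The IRF4 stretch ends at the first base that RefSeq gives for the gene. The promoter set used here holds 4 starts for IRF5 and 2 for IRF8, all inside the gene as annotated, and the first of each is shown. No stretch ending at the first base of IRF5 or IRF8 was in the set. The values below therefore do not describe a promoter at the first base of either gene. The IRF4 stretch held 76.0% G and C and 28 CpG pairs, the IRF5 stretch 69.6% and 18, and the IRF8 stretch 55.6% and 2, beside medians of 58.0% and 11 over 35116 promoters. These are single stretches, the IRF4 one at the first base of its gene and the others at starts inside theirs, so their makeup is not compared between genes. The IRF4 stretch and the first IRF5 stretch had 4 GC boxes each, in part sharing a base with each other, and 42.6% of all promoters held at least 1. The second IRF5 start had 3 GC boxes, 77.6% G and C and 30 CpG pairs. The third (56.8% and 5 CpG pairs) and the fourth (62.8% and 3) had no GC box, and neither IRF8 stretch held one. None of the 7 stretches of the 3 genes held TGANTCA (the AP-1 motif, in 6.57% of promoters), an NF-kB motif (1.26%) or an interferon regulatory factor element (3.02%) on either strand. A composite motif of ETS and IRF letters, found in 2.41% of promoters, matched once, on the minus strand beginning 33 bases before the third IRF5 start. Such a match is a run of letters and does not show binding.

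The lists held between 23329 and 28043 peaks in L1236, L428, L591 and Reh, and 5793 in Namalwa. They carry no read counts, so the depth behind them is unknown. The score of a peak is the authors' peak area, with no stated scale common to the lists, and it is given here as a percentile, the share of peaks of the same list on chromosomes 1 to 22 and X with a score no higher. Of the Namalwa peaks, 98.4% overlapped a Reh peak, and whether these libraries share a source was not tested.

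At IRF4, all 3 Hodgkin lines had more peaks than either non-Hodgkin line. L1236 had 11 peaks, L428 had 15 and L591 had 12, against 5 in Reh and none in Namalwa. The peaks covered 4270 bases in L1236, 6320 in L428 and 7010 in L591, against 1190 in Reh and 0 in Namalwa. The groups did not overlap on either measure.

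The covered length averaged 5867 ± 1430 bases in the Hodgkin lines (SD, n = 3) and 595 bases in the non-Hodgkin lines (n = 2), a difference of 5272. No other division of the 5 lines into 3 and 2 differed as much (two-sided exact permutation p = 0.1, the smallest that the 10 divisions allow, and 0.3 after Benjamini-Hochberg adjustment over the 6 tests of covered bases and peak counts at the 3 genes). None of these 6 tests could pass 0.05. Separation of the groups by itself was common in the genome, since 13.8% of 13871 tiles of the same width with any peak had all 3 Hodgkin lines above both non-Hodgkin lines in covered bases and 11.1% in peak count. A difference as large as that at IRF4 was found in 0.346% of those tiles. At 6 U/ml, L1236 and L428 exceeded Reh by 4105 bases on average, and at 12 U/ml, L591 exceeded Namalwa by 7010.

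Each Hodgkin line ranked high at IRF4 within its own list. Among the tiles, 2.51% had as many covered bases as the IRF4 window in L1236, 0.382% in L428 and 0.735% in L591, against 21.2% in Reh. In Namalwa 75.7% of the tiles had no peak at all, so an empty window there is the usual state. With every list limited to its 5760 highest scores, the length of the Namalwa list, 2 peaks were left in L1236, 4 in L428 and 3 in L591, against none in Reh and none in Namalwa.

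**Figure D1:**
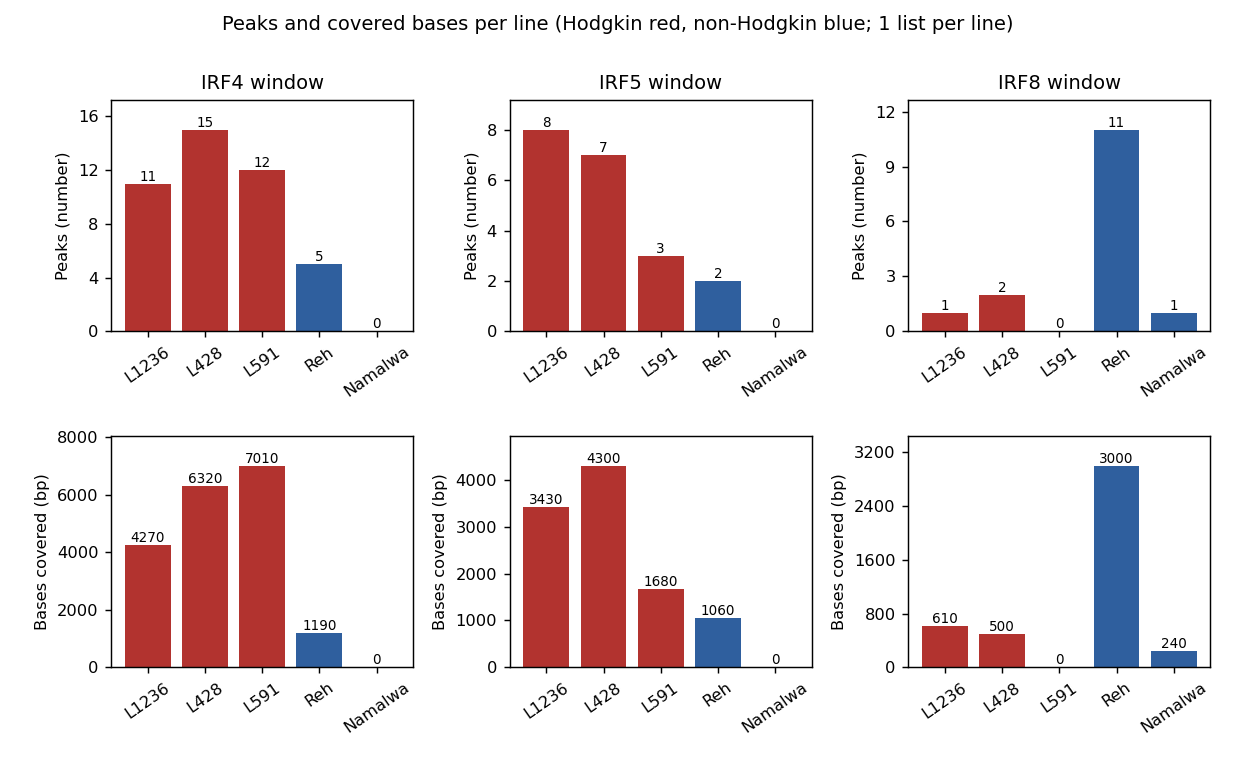
Number of peaks (upper row) and bases covered by peaks in bp (lower row) in each window for each cell line, with Hodgkin lines in red and non-Hodgkin lines in blue; a bar is the value of 1 list, so there are no error bars. The 3 Hodgkin lines stand above Reh and Namalwa at IRF4 and IRF5, by 3 peaks against 2 at the closest, and Reh stands alone at IRF8 with 11 peaks.

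The 43 IRF4 peaks joined into 22 separate regions, of which 17 had a peak in at least 1 Hodgkin line and in neither non-Hodgkin line, 4 were shared between the groups and 1 was found in Reh alone. Regions of the first kind made up 55.9% of the 59212 regions of the genome. All 3 Hodgkin lines and neither non-Hodgkin line had a peak at 4 of the 22 regions (18.2%), where the genome had 4.33%. Without L1236, 7 regions were of this kind, but the class is looser with fewer lines and its genome share was not computed. With lists of equal length it was 1.

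Along the window, the strongest shared region lay near its left edge. At 301901 to 303370 (hg18), L1236 was at percentile 95.5, L428 at 86.5 and L591 at 81.0, against 19.1 in Reh and no peak in Namalwa. Its neighbour at 300861 to 301270 was at 63.6 in L1236 and 22.7 in L428, with no peak in L591, against 26.3 in Reh and none in Namalwa. The left edge thus holds both of the IRF4 regions in which Reh joined at least 2 Hodgkin lines, and Reh ranked low in each.

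The 4 regions of all Hodgkin lines and no other line were spread over some 50 kb. At 326971 to 327400, L1236 was at percentile 46.6, L428 at 32.8 and L591 at 12.6. At 334501 to 335100, L428 was at 59.3, L591 at 55.7 and L1236 at 28.5. At 367761 to 368030, L591 was at 50.3, L428 at 43.8 and L1236 at 11.5, and the L428 and L591 peaks had the same first and last base. These 3 were of middling or low rank in every list. The fourth, at 376451 to 377530, was stronger, at 58.3 in L1236, 67.4 in L428 and 89.0 in L591, where the peak was 1080 bp wide.

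The highest IRF4 percentile of all belonged to L428 and fell outside the regions of all Hodgkin lines. At 379681 to 380710, L428 was at 98.8 and L591 at 82.5, with no peak in L1236, Reh or Namalwa. Around this site L428 alone also had peaks at 370211 to 370810 (85.1), 374671 to 374950, 380921 to 381180 and 381391 to 381720, regions named after their values were seen. L1236 had instead its second highest IRF4 peak at 348301 to 349160, at 88.9, where L428 was at 54.9 and L591 had none. A region at 336561 to 337320 was found in L591 (69.4) and Reh (16.2) and in no other line.

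The other IRF4 regions were weaker or belonged to 1 line. The 15 regions that were not named by rule had percentiles from 10.3 to 88.9. By line, 5 regions were in L428 alone (22.7%, against 9.02% of regions in the genome) and 2 in L1236 alone (9.09% against 19.8%). L591 alone had 2 (9.09% against 12.5%) and Reh alone had 1 (4.55% against 21.5%). L428 and L591 had 3 regions to themselves (13.6% against 5.74%) and L1236 and L428 had 1 (4.55% against 1.85%). These shares were not tested. Of the L428 peaks, 8 of 15 overlapped an L591 peak and 7 of 15 an L1236 peak, where the whole L428 list had 67.4% and 43.5%. The IRF4 window held no larger share of L428 peaks shared with L591 than the whole list did.

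All 5 Reh peaks lay in the left part of the window, between 300871 and 336890, while those of the Hodgkin lines spanned 112 to 119 kb. In that left part L1236 had more peaks than Reh, L591 as many and L428 fewer. The stretch was set by the Reh peaks after they were seen. Peaks of the Hodgkin lines were also frequent just beyond the window. With 50 kb added on each side, L1236 had 24, L428 had 23 and L591 had 21, against 8 in Reh and none in Namalwa. The last L1236 peak, 419931 to 420230, crossed the right edge. Since no position of the IRF4 gene in hg18 was used and the neighbouring genes are DUSP22 and EXOC2 in RefSeq order, these peaks are not assigned to a gene or to its promoter.

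**Figure D2:**
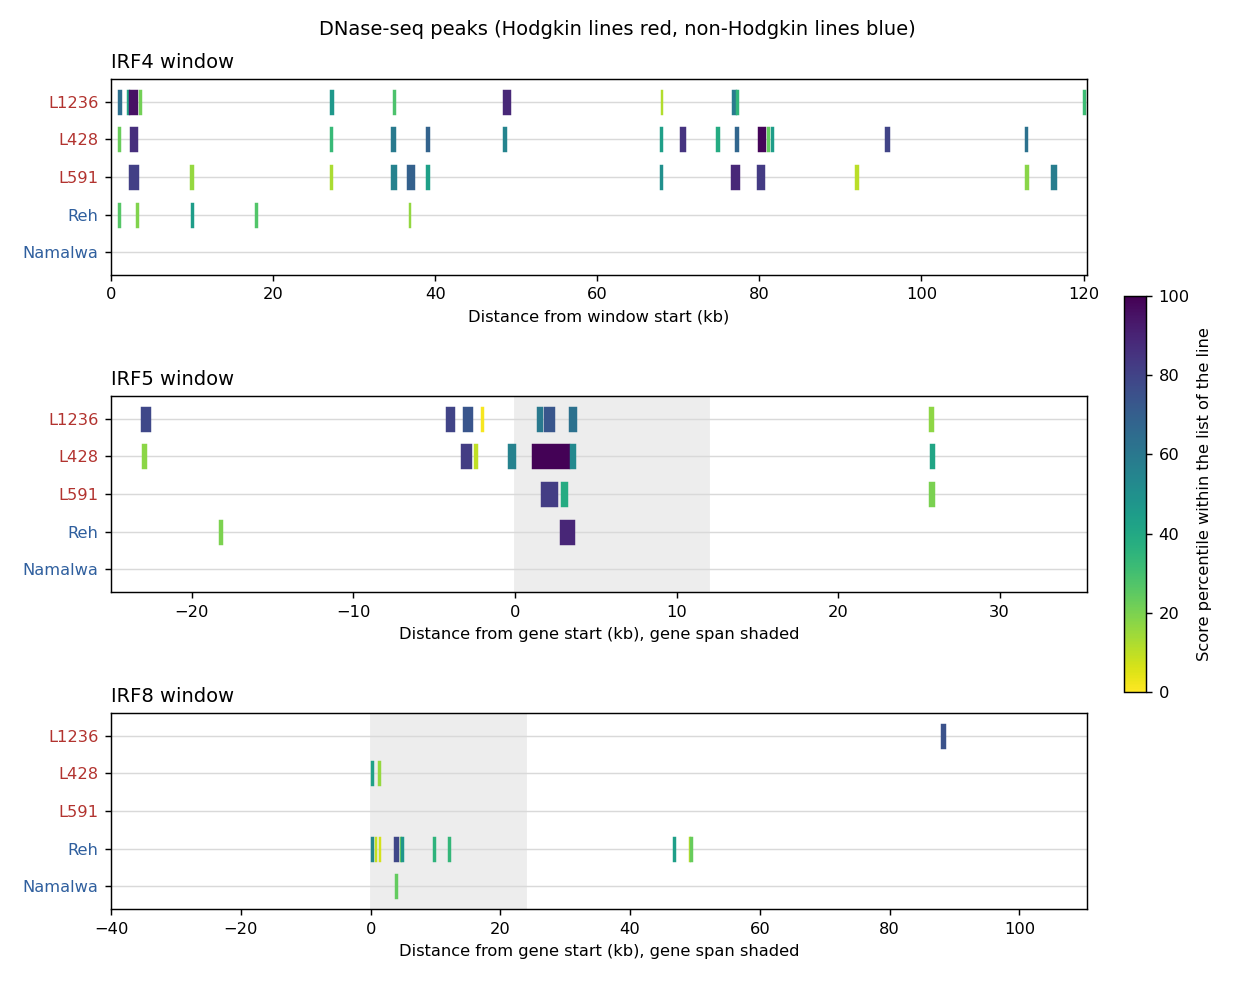
Peaks of each cell line (rows, Hodgkin lines in red above non-Hodgkin lines in blue) along the IRF4, IRF5 and IRF8 windows, in kb from the window start (IRF4) or from the approximate gene start (IRF5, IRF8, gene span in grey); colour gives the score percentile within the list of the line. Hodgkin peaks run across the whole IRF4 window, the 5 Reh peaks keep to its left part, the strongest IRF5 peaks lie just inside the gene, and 8 of the 11 Reh peaks of IRF8 lie on the gene.

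At IRF5, L1236 and L428 had most of the peaks and L591 was close to Reh. L1236 had 8 peaks, L428 had 7 and L591 had 3, against 2 in Reh and none in Namalwa. They covered 3430 bases in L1236, 4300 in L428 and 1680 in L591, against 1060 in Reh and 0 in Namalwa. All Hodgkin lines were above both non-Hodgkin lines in this window, but the gap between L591 and Reh was narrow. In covered bases it turned in the wider window and stayed with lists of equal length. In peak count L591 and Reh were equal in both settings. With 50 kb added on each side, L1236 had 10 peaks, L428 had 10 and L591 had 6, against 6 in Reh and 1 in Namalwa, and L591 had 2761 covered bases against 2981 in Reh. With lists of equal length, L1236 had 2 peaks, L428 had 2 and L591 had 1 (990 bases), against 1 in Reh (840 bases) and none in Namalwa, and the group difference was 1247 bases and 1.17 peaks.

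Covered length at IRF5 averaged 3137 ± 1330 bases in the Hodgkin lines (SD, n = 3) and 530 bases in the non-Hodgkin lines (n = 2), a difference of 2607. Setting L1236 and L428 against the other lines gave a larger difference, so the two-sided exact permutation p was 0.2 (0.3 adjusted), and it was 0.2 for peak count as well. In 11.6% of 20227 tiles of this width all Hodgkin lines were above both non-Hodgkin lines in covered bases, and in 9.18% in peak count. A difference at least as high was found in 0.959% of the tiles. At 6 U/ml, L1236 and L428 exceeded Reh by 2805 bases on average, and at 12 U/ml, L591 exceeded Namalwa by 1680. Tiles with as many covered bases made up 1.88% in L1236, 0.396% in L428 and 10.7% in L591, against 16.0% in Reh.

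The main IRF5 region lay inside the gene, near its start. Peaks of 4 lines joined at 128366031 to 128368790, centred 2.41 kb after the approximate gene start of 128365000. L428 was at percentile 99.3 there, L591 at 82.1 and L1236 at 73.4, against 89.1 in Reh and no peak in Namalwa. This was the one region of the window shared between the groups. By the highest single peak on the scale of each list, Reh ranked above L1236 and L591. L1236 and L591 each had several peaks there, which were not summed. Their highest peaks ended at 128367410 in L1236 and 128367600 in L591, before the Reh peak began at 128367801, so different sites are compared. The genome had a peak of at least 1 Hodgkin and 1 non-Hodgkin line in 21.5% of regions.

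The lines differed in which parts of that region were peaks. L428 had a peak 2300 bp wide, from 128366031 to 128368330, wider than nearly all peaks of its list (percentile 99.9 by width), and a second to 128368700. L1236 had 3 peaks, at 128366361 to 128366680, 128366811 to 128367410 and 128368331 to 128368790. L591 had a peak at 128366611 to 128367600 and a lower one, at percentile 38.8, at 128367831 to 128368230. Reh had a single peak of 840 bp at 128367801 to 128368640, in the right part. Thus the left part of the region, before the first base of the Reh peak, had peaks in all Hodgkin lines and in neither Reh nor Namalwa, while the right part had peaks in those lines and in Reh. This division was drawn after the peaks were seen, at the first base of the only Reh peak of the region. The absence of Reh and Namalwa from the left part was therefore fixed by the cut and is no separate result.

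Before the gene, peaks were found mainly in L1236 and L428. L1236 had 4 peaks in the 25 kb before the start, L428 had 3 and L591 had none, against 1 in Reh and none in Namalwa. At 128361681 to 128362310, L1236 was at 73.8 and L428 at 82.4, and at 128360701 to 128361250 L1236 alone was at 80.0. The region at 128341851 to 128342430 was at 78.2 in L1236 and 17.3 in L428. These regions were named after their values were seen. At the approximate gene start itself, 128364571 to 128365020, L428 alone had a peak, at 56.2. The gene position is rounded to 1 kb, so a peak at the start is not placed more exactly than that.

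After the gene, 1 region was found in all 3 Hodgkin lines and in neither other line, at 128390641 to 128390950. It ranked low, at 16.8 in L1236, 41.2 in L428 and 20.3 in L591. In RefSeq order, TNPO3 follows IRF5 and KCP precedes it, so this region need not belong to IRF5. With lists of equal length none of the IRF5 regions was of this kind, and within 10 kb of the gene there was none. Leaving out L591 gave 3 such regions and leaving out Reh gave 2. Fewer lines make the class easier to meet, so these rises are built into the definition. Leaving out L428 also gave 2. Its peak from 128366031 to 128368330 was then gone from the main region. The left L1236 and L591 peaks there, which end by 128367600, were no longer joined to the Reh peak from 128367801. They then counted as a region of their own.

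Sharing between lines at IRF5 was uneven. Of the L428 peaks, 5 of 7 overlapped an L1236 peak, where the whole list had 43.5%, and 2 of 7 overlapped an L591 peak, where the whole list had 67.4%. Of the L591 peaks, 3 of 3 overlapped an L428 peak and 2 of 3 an L1236 peak, where the whole list had 55.1% and 40.6%. With so few peaks these shares describe the window and were not tested. Over the 6 IRF5 regions that were not named by rule, percentiles ran from 1.36 to 82.4.

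**Figure D3:**
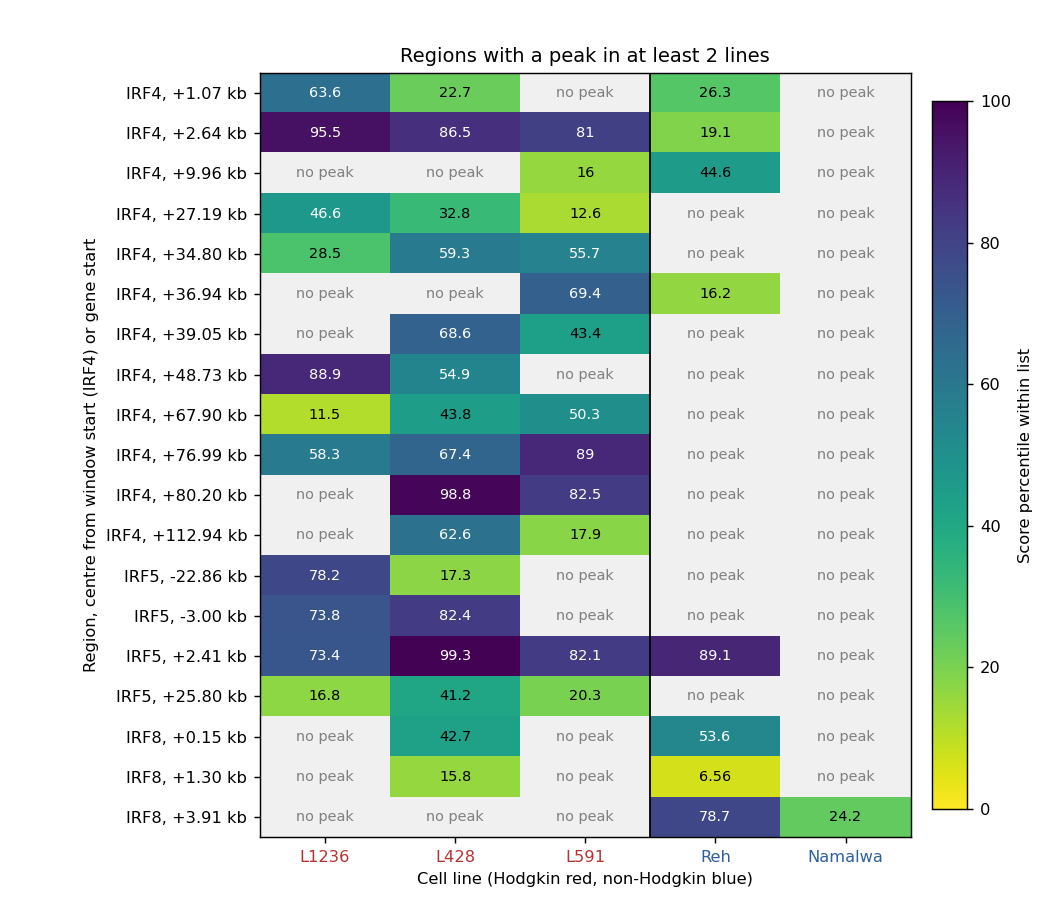
Score percentile within the list of each cell line (columns, Hodgkin lines left, non-Hodgkin lines right) for every region of the 3 windows with a peak in at least 2 lines (rows, by distance of the centre in kb from the window start for IRF4 and from the approximate gene start for IRF5 and IRF8); grey cells had no peak. The IRF5 region at 2.41 kb was high in 4 lines, the IRF4 region at 2.64 kb was high in the Hodgkin lines and at 19.1 in Reh, and Namalwa had a peak in 1 region, at IRF8.

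At IRF8 most of the peaks were those of Reh. L1236 had 1 peak, L428 had 2 and L591 had none, against 11 in Reh and 1 in Namalwa. Covered bases were 610 in L1236, 500 in L428 and 0 in L591, against 3000 in Reh and 240 in Namalwa. The groups overlapped on these raw values, because Namalwa lay among the Hodgkin lines. The Namalwa list was much the shortest, however. Per 10000 peaks of its list Namalwa had 1.74 peaks at IRF8, from its 1 peak. L1236 had 0.39, L428 had 0.859 and L591 had 0 on that scale.

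The Hodgkin lines averaged 370 ± 325 covered bases at IRF8 (SD, n = 3) and the non-Hodgkin lines 1620 (n = 2), a difference of -1250 that 3 other divisions of the lines equalled or exceeded (two-sided exact permutation p = 0.4, 0.4 adjusted). For peak count the exact permutation p was 0.3 (0.36 adjusted). Without Reh the difference was 130 covered bases and 0 peaks, so the direction of the raw values, not scaled to list length, depended on that line. Of the 11 Reh peaks, 9 were below percentile 50. With the upper 50% of each list, L1236 had 1 peak and L428 and L591 had none, against 2 in Reh and none in Namalwa, a difference of -222 bases. With lists of equal length none of the Hodgkin lines had a peak, against none in Reh and 1 in Namalwa (240 bases), so the difference of -120 bases then rested on Namalwa. All Hodgkin lines lay below both non-Hodgkin lines in covered bases in 1.03% of 12004 tiles of this width and in peak count in 0.983%, and the IRF8 window was not among such cases. A difference at least as low was found in 2.35% of the tiles. At 6 U/ml, L1236 and L428 lay below Reh by an average difference of -2445 bases, and at 12 U/ml L591 differed from Namalwa by -240. In Reh, 7.37% of tiles had as many covered bases.

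Most Reh peaks of IRF8 lay on the gene. The gene spans about 84490000 to 84514000, and 8 Reh peaks, 2 L428 peaks and the Namalwa peak overlapped it, while L1236 and L591 had none there. In the 40 kb of the window before the gene no line had a peak. At the approximate start, 84489991 to 84490300, L428 was at percentile 42.7, against 53.6 in Reh, and no other line had a peak. L428 and Reh also shared a weak region at 84491201 to 84491400, at 15.8 in L428 against 6.56 in Reh. Both L428 peaks of the window therefore overlapped Reh peaks, where 44.3% of the whole L428 list did. With 2 peaks this overlap is not unusual.

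The strongest IRF8 region was shared by Reh and Namalwa and absent from the Hodgkin lines. It lay at 84493611 to 84494210, centred 3.91 kb after the approximate start, with Reh at percentile 78.7 and Namalwa at 24.2, and is named after its values were seen. Regions with a peak in both non-Hodgkin lists and no Hodgkin list made up 1.04% of the genome's regions, and this was 1 of the 12 at IRF8. Further Reh peaks followed at 84494491 to 84494710, 84494731 to 84495010, 84499621 to 84499880 and 84501971 to 84502220, at percentiles of 21.7 to 47.5.

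Beyond the gene only Reh and L1236 had peaks. Reh had 3 between 84536551 and 84539550, at percentiles of 10.2 to 43.9. L1236 had its single peak of the window at 84577961 to 84578570, at percentile 74.8 and 88.27 kb after the approximate start, where no other line had one. In all, 8 of the 12 IRF8 regions were in Reh alone, a class of 21.5% of the genome's regions. Regions with a Reh peak and no Hodgkin peak numbered 9 of 12 at IRF8, while in the genome they were 22.5% of regions. In RefSeq order FOXF1 is the next coding gene after IRF8, and the peaks beyond the gene were not assigned.

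The Namalwa list was read against Reh, because its peaks were nearly all in the Reh list. Of Reh peaks below percentile 40, at most 1.52% in any bin of 10 percentiles had a Namalwa peak, and the share was 51.1% between percentiles 80 and 90 and 89.5% above 90. The 5 Reh peaks of IRF4 were at 16.2 to 44.6, where at most 2.65% of Reh peaks had a Namalwa peak. Their absence from Namalwa is thus the common case for Reh peaks of that rank, and it was not detectable from these lists whether Namalwa differed from Reh at IRF4. The IRF5 peak of Reh at 89.1 had no Namalwa counterpart in a bin where 51.1% did. The IRF8 peak at 78.7 had one in a bin where 22.6% did.

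**Figure D4:**
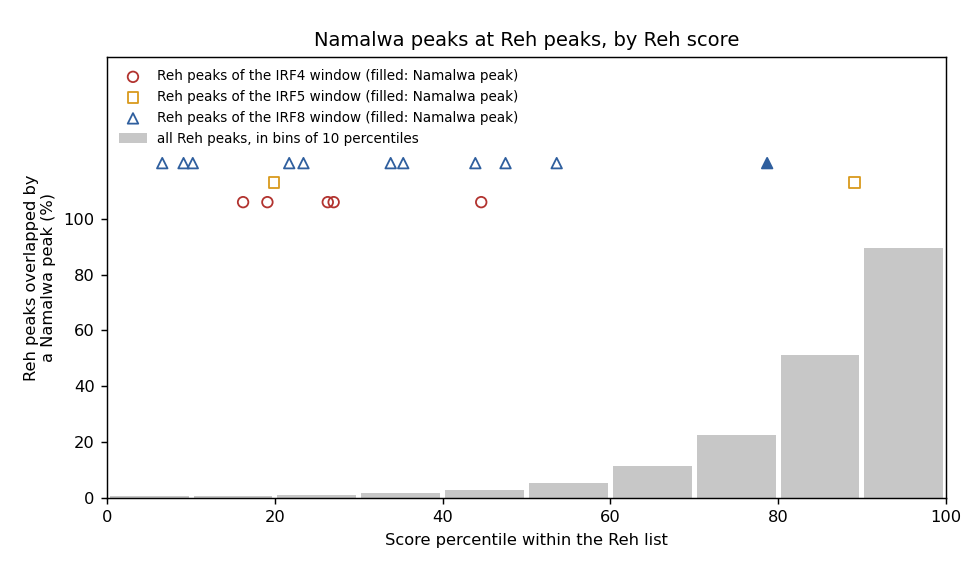
Share of all Reh peaks overlapped by a Namalwa peak, in percent, for each bin of 10 score percentiles of the Reh list (grey bars), with the Reh peaks of the 3 windows as symbols at their percentile above the bars (filled where a Namalwa peak overlaps). The share is 0.484% in the lowest bin and 89.5% in the highest, and 1 of the 18 Reh peaks of the windows, at IRF8 and percentile 78.7, had a Namalwa peak.

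Side by side, the genes ordered the lines differently. By covered bases the order at IRF4 was L591, L428, L1236, Reh and Namalwa, at IRF5 it was L428, L1236, L591, Reh and Namalwa, and at IRF8 it was Reh, L1236, L428, Namalwa and L591. With 1 list per line, neighbours in these orders cannot be shown to differ. L591 had the most covered bases of the 5 lines at IRF4 and none at IRF8, but its peaks were wider throughout its list, with a median of 450 bp against 290 to 320 bp in the other lists. By peak count at IRF4, L428 with 15 was above L591 with 12. Per 10000 peaks of its list, L591 had 4.51 peaks at IRF4, while L428 had 6.44 peaks at IRF4, 3.01 at IRF5 and 0.859 at IRF8, while Reh had 1.79, 0.716 and 3.94.

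The stretches of other chromosomes most like each gene were found by the distance of log2(covered bases + 100) over the 5 lines. For IRF4 they were chromosome 20 from 47640001 to 47760000 (distance 0.84), chromosome 17 from 35880001 to 36000000 (0.90) and chromosome 8 from 131040001 to 131160000 (0.96). For IRF5 they were chromosome 16 from 87900001 to 87960000 (0.94), chromosome 15 from 76080001 to 76140000 (1.04) and chromosome 1 from 3540001 to 3600000 (1.07). For IRF8 they were chromosome 9 from 125100001 to 125250000 (0.38), chromosome 22 from 16050001 to 16200000 (1.17) and chromosome 1 from 16200001 to 16350000 (1.37). The first of these for IRF8 had 480 covered bases in L1236, 430 in L428 and 0 in L591, against 2670 in Reh and 240 in Namalwa.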

How the data were processed

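Open chromatin was measured by DNase-seq in 5 cell lines, with the labels' lymphoma type as the group. Per the submitters' processing notes, Bowtie 1.00 and hg18 were used for mapping. Per the file columns, reads were extended to 146 bp and binned at 10 bp. Of the peak caller, its cut-off and the depth nothing is given in the sources used here. Peaks were listed per line, and the name column of 4 lists, all but that of L1236, bears the mark qcTrimmed. The deposited score is a peak area made by the authors, always divisible by 8 and with no stated scaling, and it was used only as a percentile within a list.

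Positions are 1-based and inclusive. Windows and the positions of IRF5 and IRF8 are approximate hg18 values chosen for this report. Covered bases were limited to the window. Overlapping peaks of all lines, sharing at least 1 base, were joined into regions, and a region with several peaks of a line takes the highest percentile. Hodgkin and non-Hodgkin lines were compared by exact permutation over the 10 divisions into 3 and 2. Tiles were adjoining stretches as wide as a window, counted where any line had a peak. Regions were named where at least 3 lines had a peak, where a percentile reached 90 or where the gene start was overlapped, and the 3 tiles most alike were named. The genes, windows and lists were chosen with earlier results of these data known. Promoters came from RefSeq, with all 3 genes matched. Other members of the family were not analysed here, because no hg18 annotation was used. Each p-value is the share of the 10 divisions with a difference at least as large in size, with lines as the replicates. With 1 list per line, differences between lines cannot be told apart from differences between lists.

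Alternatives were lists of equal length (5760 peaks), the upper 50% of each list, windows 50 kb wider on each side, the gene with 10 kb on each side, peaks set to 200 bp, peaks up to 200 bp apart joined, an overlap of 50% of the shorter peak, and each line left out. Joining, class counts and tile counts were tested on simulated lists, where all planted regions were recovered. The planted regions lay far apart and the peaks of each always overlapped. The simulation therefore checks the counting and not peaks that bridge neighbouring regions. Python 3.11.15, numpy 2.4.6, pandas 2.3.3 and matplotlib 3.10.9 were used.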

Additional observations from a re-analysis of the deposited data

How the results depend on the processing

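The group differences in covered bases and peak count were recomputed under 58 alternatives over the 3 genes, of which 56 kept their direction. The exceptions were at IRF8 without Reh, with 130 covered bases and 0 peaks. Sizes moved more than directions. With lists of equal length the difference in covered bases was 2570 at IRF4 (5272 in the full lists), 1247 at IRF5 (2607) and -120 at IRF8 (-1250), and in peak count 3.0 at IRF4 (10.2), 1.17 at IRF5 (5.0) and -0.5 at IRF8 (-5.0). With the upper 50% it was 4220, 2127 and -222 bases, in the same order. Leaving out each line in turn, the Hodgkin minus non-Hodgkin difference ranged in covered bases from 4677 to 6070 at IRF4, from 2025 to 3335 at IRF5 and from -2630 to 130 at IRF8, and in peak count from -10.0 to 0 at IRF8. Counts of regions open in every Hodgkin line but in neither other line were small and moved easily. At IRF4 the 4 regions became 1 with lists of equal length, 2 with the upper 50% of each list and 8 in the wider window, and 4 to 7 when a line was left out, with 7 without L1236. At IRF5 the 1 region became 0 with lists of equal length, 0 with the upper 50%, 0 within 10 kb of the gene and 2 with peaks set to 200 bp, and 1 to 3 when a line was left out. Leaving out a line loosens the class, so a rise in those counts is no check of the full count. Without L428, the added IRF5 region was a piece of the main region, which the wide L428 peak no longer joined. The cause was not tested beyond what each alternative removes. At IRF8 the count was 0 under every alternative run. IRF4, whose gene position was not used, had no alternative limited to the gene. No paired analysis was possible because the groups are different cell lines, with no pairing between them. With 5 lists and no read counts, no test could reach 0.05 and the depth limit of an absent peak is unknown.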
